A study of Mus musculus with 8 samples.

Results

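The clustered protocadherin genes of the mouse were described in poly(A) RNA of the medial prefrontal cortex. Members were the protein-coding genes whose GENCODE M21 symbol begins with Pcdha, Pcdhac, Pcdhb, Pcdhga, Pcdhgb or Pcdhgc and ends in a number. This gave 57 gene identifiers of the 54446 in the count table. There were 14 in the alpha cluster, 22 in the beta cluster and 21 in the gamma cluster. The 57 identifiers carry 56 symbols, because the annotation gives Pcdha11 to 2 identifiers. Pcdhgb8 is annotated as a polymorphic pseudogene and was not a member.

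The series has 8 libraries in 2 groups of 4, labelled Ino80e overexpression and wild-type mice. Ino80e belongs to INO80, a complex that moves nucleosomes, and the design text describes its dysregulation in this region by stereotaxic injection of an adeno-associated virus. No source used here gives the strain, the age, the viral promoter and serotype, the time after injection or whether wild-type mice received a control virus. No label ties a library to its own mouse, so the spread behind every p-value is that of these libraries and may be technical in part.

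Protocadherins are cell adhesion molecules of the cadherin superfamily, with an extracellular part of cadherin repeats, a single membrane pass and a cytoplasmic tail. In the alpha and gamma clusters, each gene contributes its own large variable exon with its own promoter, which is spliced to constant exons shared by the whole cluster. Beta genes are single variable exons without such constant exons. A neuron typically uses a few of the alternate isoforms, and the proteins bind the same isoforms on other membranes, which serves recognition of self in dendrites and axons. The C-type isoforms, Pcdhac1, Pcdhac2, Pcdhgc3, Pcdhgc4 and Pcdhgc5, lie at the downstream ends of the alpha and gamma clusters and are regulated apart from the alternate ones.

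Ino80e, the gene named by the labels, stood at 74.1, 23.4, 23.3 and 45.0 CPM in overexpression replicates 1 to 4, and at 22.3, 19.5, 25.5 and 20.7 CPM in wild-type replicates 1 to 4. CPM are counts relative to the library size after TMM scaling. Overexpression replicates 1 and 4 lay above every wild-type library, and overexpression replicates 2 and 3 lay inside the wild-type range. The log2 fold change was 0.91 (SE 0.42, edgeR adjusted p = 0.51), and exact permutation of the 8 labels (two-sided, on log2 CPM) gave p = 0.114, with 0.0286 the smallest value that can be reached. The log2 fold change of Ino80e was 0.47 without overexpression replicate 1, and 1.43 without overexpression replicates 2 and 3. Directions in what follows compare labels, and not measured levels of Ino80e. Library totals ran from 44762378 to 60490153 counts. The 5 frontal cortex markers summed to between 508 and 591 CPM in every library. The 6 choroid plexus markers summed to 13.1 to 108 CPM in overexpression and 8.71 to 1120 CPM in wild type, with Ttr at 982 CPM in wild-type replicate 4 against 2.41 to 90.8 CPM elsewhere, and the part of this tissue in the results was not tested.

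The 3 clusters follow each other on the plus strand of chromosome 18 of GRCm38, alpha at 36930184 to 37187661, beta at 37264938 to 37524479 and gamma at 37661793 to 37841873. The share of a gene's annotated exon bases that also belong to another listed gene had a median of 53.6% in the alpha cluster and 45.2% in the gamma cluster, against 0% in the beta cluster. For most alpha and gamma members the shared bases are chiefly the constant exons. The counts behave as though reads that overlap exons of more than 1 gene had been left out and strand had not been used. Of 133 protein-coding genes with no exon base of their own on their strand, 133 had 0 counts in all 8 libraries. Of 43 protein-coding genes whose own bases are all overlapped by exons of the opposite strand, 40 (93.0%) had 0 counts in all libraries. Among the other 21742 protein-coding genes, 4022 (18.5%) did. The counts of alpha and gamma members therefore come from what is particular to each gene, chiefly the variable exon, and the constant exons were not measured here.

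**Figure D1:**
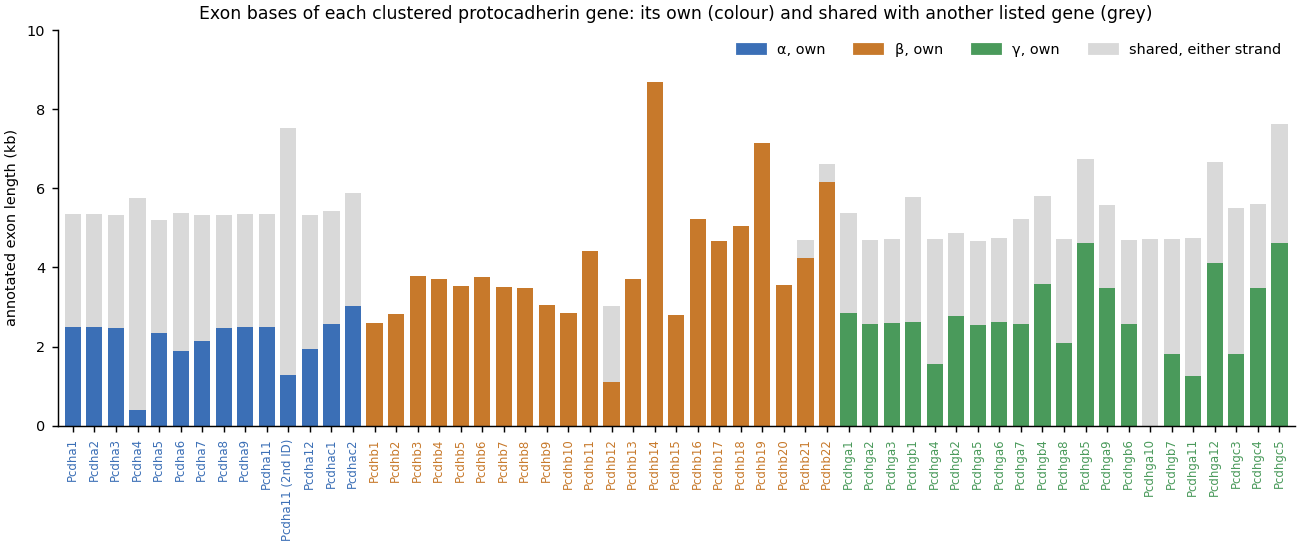
Annotated exon length in kb of each of the 57 members, in the order along the chromosome, divided into bases of its own (colour) and bases that another listed gene also covers on either strand (grey). Every alpha and gamma gene has a grey part, Pcdhga10 is grey throughout, and most beta genes have none.

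Of the 57 members, 53 passed the filter on low counts and were tested, 12 in the alpha, 21 in the beta and 20 in the gamma cluster. The filter keeps a gene with enough counts in as many libraries as a group holds, so these 53 are not all members. Pcdhga10 had 0 counts in all 8 libraries. All of its exon bases belong to other genes too, with 2613 bases under the opposite-strand transcript Gm26672, so a count of 0 is what the counting leaves and says nothing of the gene's level. Pcdha4 has 404 exon bases of its own, because the read-through gene Gm42416 covers 2410 of its bases, and it had 0, 0, 0 and 1 counts in overexpression replicates 1 to 4 and 9, 2, 0 and 1 in wild-type replicates 1 to 4. Gm42416 itself was at 0 in every library. The second Pcdha11 identifier, ENSMUSG00000102206, is overlapped over 2486 bases by the antisense gene Gm10545 and had counts of 0, 0, 0 and 4 and of 0, 0, 0 and 1 in the same order. That identifier keeps 1268 exon bases of its own, and 5 counts in all fell on them. Of its exon bases 83.2% are shared, and whether its own bases lie in the variable exon was not tested. The levels of Pcdhga10 and Pcdha4 cannot be read from these counts, and that of the second Pcdha11 identifier was not read from them either.

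Pcdhb1, the most upstream beta gene, was the only untested member whose exon is all its own, with 2588 bases. Its counts were 0, 0, 0 and 14 in overexpression replicates 1 to 4 and 12, 0, 2 and 6 in wild-type replicates 1 to 4. It was listed at 0 in 4 of the 8 libraries, where a count of 0 allows a level of up to 0.0577, 0.062, 0.0496 and 0.0641 CPM in overexpression replicates 1, 2 and 3 and wild-type replicate 2, from 3 counts and for counting error only. Sharing of exons does not apply to this gene, and its level was near the limit of detection at this depth.

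Within each cluster the tested genes spanned wide ranges, compared as CPM per kb of each gene's own exon bases, a mean over all 8 libraries. The range was 50.9-fold in the alpha cluster, 5.54-fold in the beta cluster and 32.5-fold in the gamma cluster. Medians were 1.90 CPM per kb for alpha, 1.53 for beta and 4.67 for gamma. The non-clustered delta protocadherins, of which 10 were tested, had a median of 7.95 CPM per kb and ran from 1.57 for Pcdh11x to 39.5 for Pcdh1, and only Pcdhgc5 stood above that range. By full exon length Pcdhgc5 was at 24.4 CPM per kb, inside it. Alpha and gamma levels rest chiefly on the variable exons, while most beta genes and the delta genes were counted over most or all of their exon bases. Levels across these sets therefore compare unlike stretches of the genes. These levels are descriptions of the same 8 libraries and carry no test.

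In the alpha and gamma clusters the highest places were held by C-type genes, though not by all of them. Pcdhgc5 was at 40.4 CPM per kb, Pcdhgc3 at 21.1 and Pcdhac2 at 17.4, while the other 2 C-type genes were lower, Pcdhac1 within the range of the alternate alpha genes and Pcdhgc4 at 4.97 CPM per kb. Pcdhgc5 shares 1530 exon bases with the transcript Gm38182, against 628 for Pcdhgc3 and Pcdhgc4. Whether all 4606 own bases of Pcdhgc5 belong to its variable exon was not tested. In the alpha cluster, Pcdha12 at 6.41 and Pcdha5 at 3.03 CPM per kb followed Pcdhac2, and Pcdha8 at 0.342, Pcdha1 at 0.702 and Pcdha2 at 1.11 were lowest. In the gamma cluster Pcdhga11 followed the C-types Pcdhgc5 and Pcdhgc3 at 9.69 CPM per kb, and Pcdhgb5 at 1.24, Pcdhga1 at 1.78 and Pcdhgb4 at 1.83 were lowest. The place of Pcdhga11 depends on its short own length of 1256 bases: by the full annotated exon length it was at place 9 of the cluster. The 6 tested B-type gamma genes had a median of 3.98 CPM per kb, the 11 A-type genes 4.69 and the 3 C-type genes 21.1.

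By own exon length the beta genes lay closest together, and the ranges given above for alpha and gamma include the C-type genes. Pcdhb9 at 4.36, Pcdhb17 at 3.84 and Pcdhb20 at 3.40 CPM per kb were highest, and Pcdhb6 at 0.787, Pcdhb4 at 0.824 and Pcdhb11 at 0.995 were lowest. Pcdhb12, which shares most of its exon with the antisense gene Gm37446, was at place 6 by own length and at place 21 by full length. By full length, the tested beta genes ran from 0.759 CPM per kb for Pcdhb12 to 4.36 for Pcdhb9. The tested gamma genes without the C-types ran from 0.852 for Pcdhgb5 to 4.24 for Pcdhgb6. Along the chromosome, levels per kb tended to be higher for genes farther downstream in the alpha cluster, with a Spearman's rho of 0.62 over 12 genes and 0.53 over the 10 without the C-type genes. The same rho was 0.26 over 21 beta genes and 0.38 over 20 gamma genes, and 0.11 over the 17 gamma genes without the C-types. These correlations are across genes of the same libraries, with own length and base composition differing between genes, and they are given as descriptions.

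**Figure D2:**
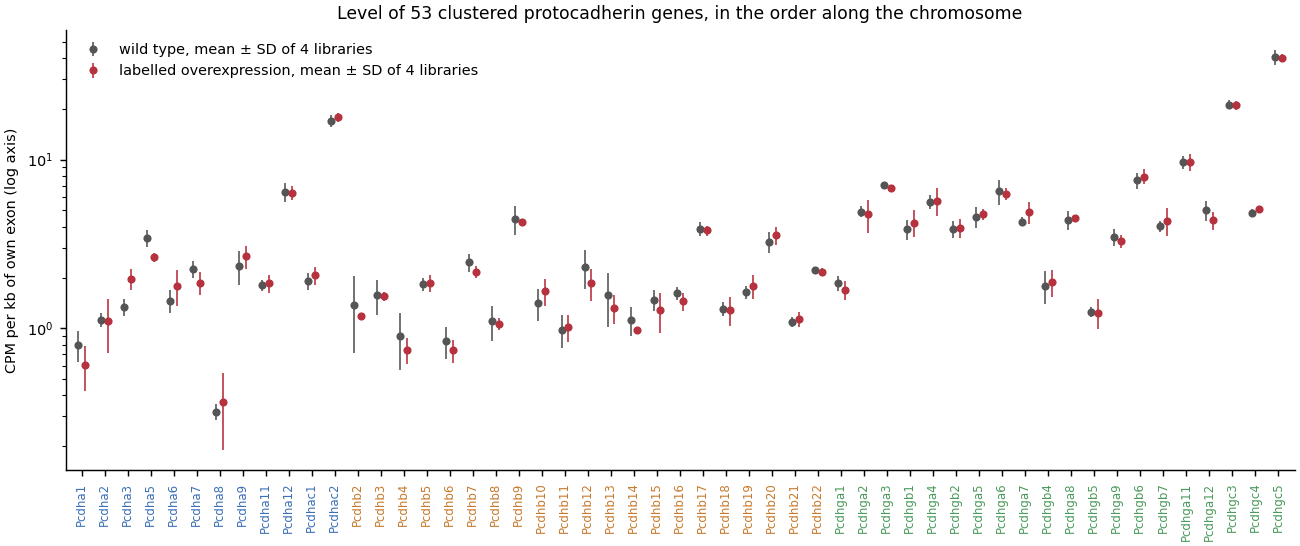
Level of the 53 tested members in CPM per kb of own exon (log axis), in chromosomal order, with the mean ± SD of the 4 wild-type (grey) and the 4 overexpression (red) libraries. Pcdhgc5, Pcdhgc3 and Pcdhac2 stand above the rest of their clusters in both groups, and Pcdha8 is the lowest in both.

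In the libraries labelled overexpression against wild type, 0 of the 53 tested members passed the test, with edgeR adjusted p of at least 0.31, beside 6 of all 17636 genes tested (0.034%). At an unadjusted p under 0.05 there were 2 members (3.77%), 1 higher and 1 lower, against 1883 of all genes tested (10.7%), of which 925 (5.24%) were higher and 958 (5.43%) lower. DESeq2 and limma-voom likewise called 0 members, with Pcdha3 and Pcdha5 again under 0.05 before adjustment. The share of members at an unadjusted p under 0.05 was below the share of all genes in the main edgeR fit. After a correction of the libraries for transcript GC content, 1 of the 53 was higher and 2 were lower. With that correction 5.11% of all genes tested were under 0.05, so the members were no longer below all genes. The median SE was 0.13 over the members and 0.11 over all genes tested. In RNA of whole tissue, fewer cells of a type and less RNA per cell cannot be told apart.

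The fit limited most changes to small sizes. All 53 intervals (95%) of the fold change excluded a 2-fold difference in either direction, and 40 of 53 excluded a 1.5-fold difference, 6 of 12 in the alpha, 14 of 21 in the beta and 20 of 20 in the gamma cluster. The median log2 fold change was 0.051 in the alpha cluster, where 7 members lay above 0 and 5 below. It was -0.045 in the beta cluster, with 6 above and 15 below, and 0.013 in the gamma cluster, with 11 above and 9 below. The median over all genes tested was 0.0016. The gamma median changed sign after a correction of the libraries for transcript GC content (-0.028) and without overexpression replicate 3 (-0.015), wild-type replicate 1 (-0.034) or wild-type replicate 4 (-0.020). Over the fits without 1 library the alpha median ran from 0.0086, without wild-type replicate 3, to 0.081, without wild-type replicate 4. The beta median ran from -0.13, without wild-type replicate 4, to 0.00017, without wild-type replicate 2. Within the gamma cluster, 5 of 6 B-type genes lay above 0, with a median of 0.071, and 5 of 11 A-type genes did, with a median of -0.053. The 95% intervals of all these genes spanned 0, and 50.5% of all genes tested lay above 0.

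**Figure D3:**
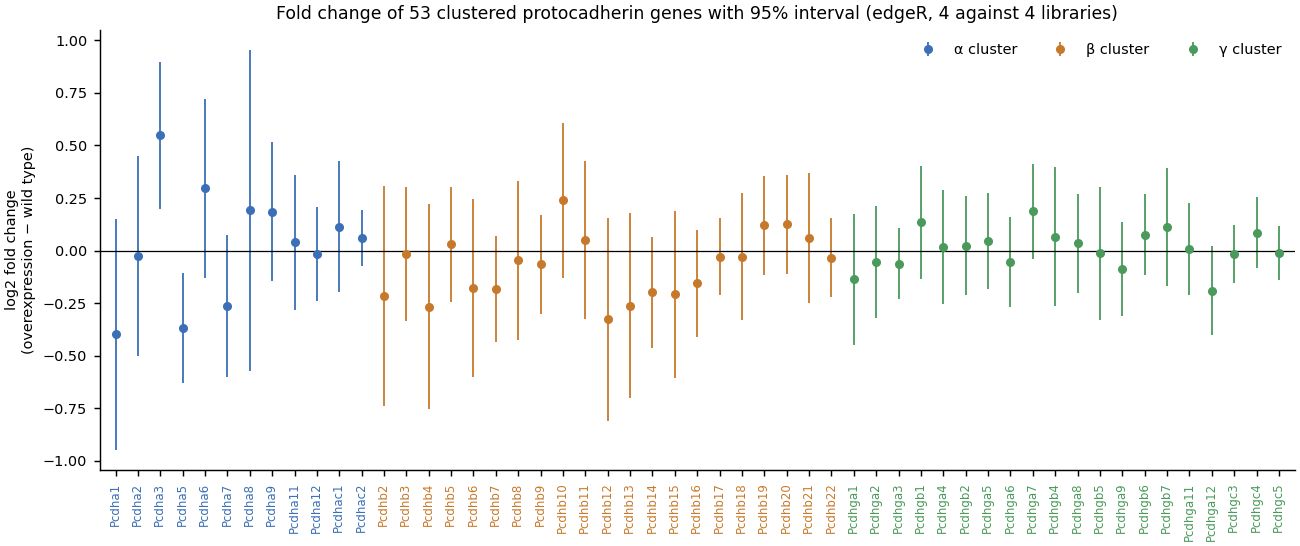
Log2 fold change (overexpression minus wild type) of the 53 tested members with its 95% interval derived from the edgeR F test, 4 against 4 libraries, in chromosomal order and coloured by cluster. The intervals of Pcdha3 and Pcdha5 lie to either side of 0, and all others span it.

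Pcdha3 and Pcdha5 had the lowest p of the members, and they lie 2 places apart in the alpha cluster with fold changes of opposite sign. Both encode alternate alpha isoforms. Their annotated spans begin at 36946105 for Pcdha3 (ENSMUSG00000102312) and at 36960440 for Pcdha5 (ENSMUSG00000103092), and both end at 37187657 with the constant exons of the cluster. Exon bases of their own number 2472 and 2346. Pcdha3 was at 4.87, 5.10, 5.54 and 3.88 CPM in overexpression replicates 1 to 4 and at 2.83, 3.74, 3.26 and 3.43 CPM in wild-type replicates 1 to 4. The groups did not overlap, with overexpression replicate 4 closest to the wild-type libraries. This gave means of 4.85 ± 0.704 and 3.31 ± 0.378 CPM (SD, n = 4 each) and a log2 difference of 0.55 (SE 0.17, 95% interval 0.20 to 0.90, edgeR adjusted p = 0.31). Its highest value came from overexpression replicate 3, where Ino80e was in the wild-type range.

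Pcdha5 was at 6.31, 6.61, 5.72 and 6.19 CPM in overexpression replicates 1 to 4 and at 8.42, 8.82, 6.73 and 8.10 CPM in wild-type replicates 1 to 4. The groups again did not overlap, and wild-type replicate 3 came close to the highest overexpression library. This gave means of 6.21 ± 0.37 and 8.02 ± 0.907 CPM (SD, n = 4 each) and a log2 difference of -0.37 (SE 0.13, 95% interval -0.63 to -0.11, edgeR adjusted p = 0.33). Among the 53 tested members these were the only 2 whose groups did not overlap (3.77%), 1 in each direction, where 1030 of all genes tested did not overlap (5.84%), 497 higher (2.82%) and 533 lower (3.02%). Pcdha4, which lies between them, was not tested.

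The other alpha genes with low p were Pcdha6, Pcdha7, Pcdha9 and Pcdha1, all alternate isoforms. Pcdha6 was at 3.54, 2.48, 4.41 and 3.02 CPM in overexpression replicates 1 to 4 and at 2.76, 3.22, 2.19 and 2.81 CPM in wild-type replicates 1 to 4. Pcdha9 was at 5.64, 6.98, 6.02 and 7.93 CPM against 4.63, 4.74, 7.28 and 6.66 CPM. Both pairs of groups overlapped, Pcdha9 through wild-type replicates 3 and 4. The log2 fold changes were 0.30 for Pcdha6 (SE 0.21), -0.26 for Pcdha7 (SE 0.16), 0.18 for Pcdha9 (SE 0.16) and -0.40 for Pcdha1 (SE 0.27), with edgeR adjusted p of 0.60, 0.56, 0.69 and 0.59. Pcdha1 was at 2.04, 1.36, 0.975 and 1.66 CPM in overexpression and 1.78, 1.64, 2.57 and 1.94 CPM in wild-type replicates 1 to 4, so the groups overlapped. Pcdha7 stood at 3.79, 3.45, 3.87 and 4.86 CPM against 4.88, 5.53, 4.49 and 4.28 CPM, and only overexpression replicate 4 reached the wild-type range. These values moved with single libraries. Pcdha6 was at 0.14 without overexpression replicate 3, and Pcdha1 at -0.24 and -0.25 without overexpression or wild-type replicate 3. Pcdha9 ran from 0.089 without overexpression replicate 4 to 0.31 without wild-type replicate 3, with 0.091 and 0.094 without wild-type replicates 1 and 2. The least expressed member tested, Pcdha8, had the widest interval, -0.57 to 0.95.

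Pcdhga12, Pcdhga7, Pcdhb14 and Pcdhb10 were the beta and gamma genes among the 5 members with the lowest p in each direction. Pcdhga12, the last A-type gamma gene, was at 17.0, 15.4, 20.2 and 19.5 CPM in overexpression replicates 1 to 4 and at 17.5, 23.9, 21.7 and 19.3 CPM in wild-type replicates 1 to 4, with overlap between the groups (log2 -0.19, SE 0.10, edgeR adjusted p = 0.52). Pcdhga7 was at 12.7, 10.4, 12.2 and 14.8 CPM against 11.6, 11.2, 10.03 and 11.2 CPM (log2 0.19, SE 0.11, edgeR adjusted p = 0.55). Overexpression replicate 2 of Pcdhga7 lay below all but the lowest wild-type library. Pcdhb14 had means of 8.49 ± 0.357 and 9.74 ± 1.88 CPM (log2 -0.20, SE 0.13, edgeR adjusted p = 0.57), and Pcdhb10 had 4.73 ± 0.888 and 4.01 ± 0.841 CPM (log2 0.24, SE 0.18, edgeR adjusted p = 0.64; SD, n = 4 each). Without overexpression replicate 4, Pcdhga7 was at 0.096 and Pcdhb10 at 0.12, and without wild-type replicate 2, Pcdhb10 was at 0.39. Pcdhga12 was at -0.12 and -0.11 without overexpression or wild-type replicate 2. Pcdhb14 was at -0.13 and -0.12 without wild-type replicates 2 and 3, at -0.31 without wild-type replicate 4 and at -0.093 after the GC correction.

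**Figure D4:**
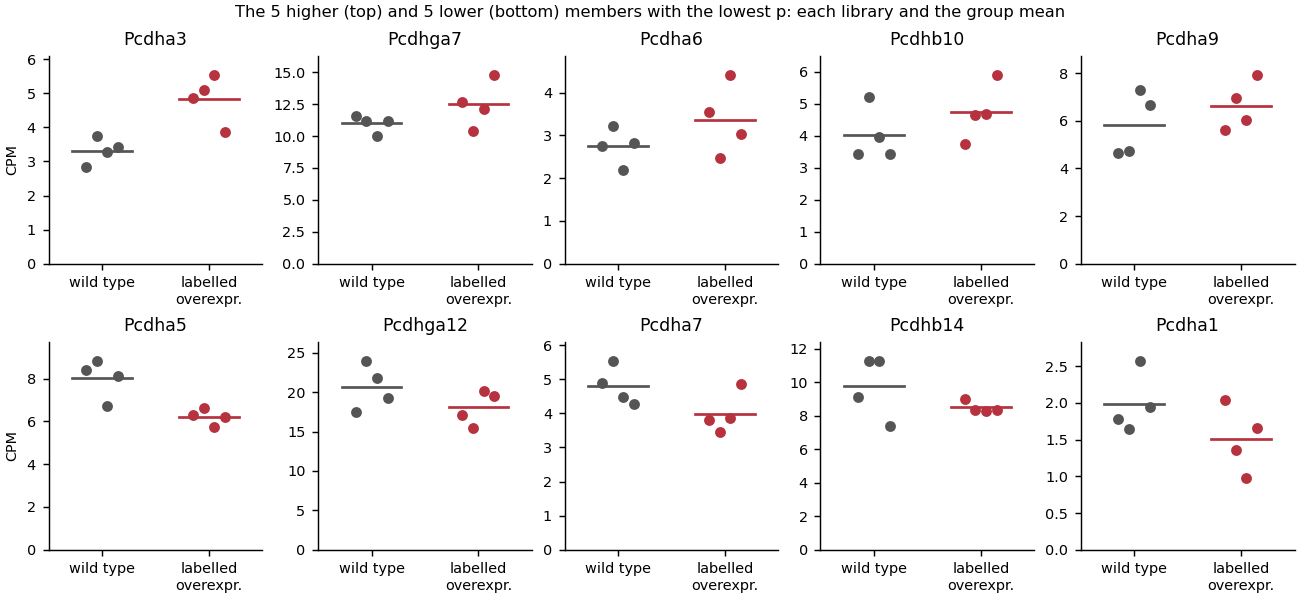
CPM of the 5 members with the lowest p in each direction, higher on top and lower below, as 1 point per library with the group mean as a line (wild type grey, overexpression red; axes start at 0). The points of the groups are apart for Pcdha3 and Pcdha5 and overlap for the other 8 genes.

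Of the C-type genes, Pcdhgc5, Pcdhac2 and Pcdhgc3 had the smallest SE of the 53 tested members, 0.062, 0.064 and 0.066. Pcdhgc5 was at 184, 173, 199 and 185 CPM in overexpression replicates 1 to 4 and at 168, 211, 190 and 177 CPM in wild-type replicates 1 to 4. The wild-type libraries enclosed all 4 overexpression libraries, and the log2 fold change was -0.011 with a 95% interval of -0.14 to 0.12. Pcdhgc3 was at 39.8, 39.2, 34.8 and 39.2 CPM against 36.1, 38.5, 41.7 and 38.2 CPM, a log2 fold change of -0.015 (95% interval -0.15 to 0.12). Pcdhac2 was at 53.6, 50.05, 57.8 and 54.1 CPM against 47.8, 53.5, 48.1 and 57.1 CPM, a log2 fold change of 0.062 (95% interval -0.071 to 0.20). For Pcdhgc4 the log2 fold change was 0.085 (95% interval -0.085 to 0.25) and for Pcdhac1 0.11 (95% interval -0.20 to 0.42). The groups overlapped for all 5, and edgeR adjusted p lay between 0.73 and 0.96.

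Across the rest of the beta cluster the log2 fold changes ran from -0.33 for Pcdhb12 (SE 0.23) to 0.24 for Pcdhb10. Pcdhb9 had means of 13.0 ± 0.425 and 13.6 ± 2.67 CPM, Pcdhb17 17.7 ± 1.20 and 18.1 ± 1.70 CPM, and Pcdhb20 12.6 ± 1.57 and 11.6 ± 1.62 CPM in overexpression and wild type (SD, n = 4 each). The log2 fold changes of these 3 genes were -0.065, -0.029 and 0.13. The lowest beta genes, Pcdhb6, Pcdhb4 and Pcdhb11, were at -0.18 (SE 0.20), -0.27 (SE 0.24) and 0.050 (SE 0.18). In the gamma cluster the range was -0.19 for Pcdhga12 to 0.19 for Pcdhga7, and the lowest genes, Pcdhgb5, Pcdhga1 and Pcdhgb4, were at -0.013 (SE 0.15), -0.14 (SE 0.15) and 0.067 (SE 0.16). Pcdhga11 was at 0.0071 (SE 0.11). In the alpha cluster, Pcdha12 was at -0.015 (SE 0.11) and Pcdha2 at -0.026 (SE 0.23). None of these genes passed the test, and the edgeR adjusted p of those in this paragraph was at least 0.52.

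The summed CPM of each cluster, and its share of all members, differed between groups by less than the SD of the wild-type libraries. All members together summed to 695 ± 29.7 CPM in overexpression and 698 ± 48.8 CPM in wild type (SD, n = 4 each). Alpha genes made up 15.3 ± 0.165% of that sum in overexpression and 14.9 ± 1.01% in wild type, beta genes 21.5 ± 0.309% and 22.1 ± 0.857%, and gamma genes 63.2 ± 0.158% and 63.1 ± 0.931% (SD, n = 4 each). The C-type genes held 55.5 ± 1.05% and 54.4 ± 1.02% of the alpha sum, and 54.9 ± 0.843% and 54.9 ± 0.755% of the gamma sum, in overexpression and wild type. The groups overlapped in both C-type shares, which ran from 54.8 to 57.1% and from 53.4 to 55.7% of the alpha sum. Spearman's rho between the 53 members' levels in 2 libraries ran from 0.94 to 0.97 within groups and from 0.94 to 0.98 between groups.

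The evenness of the tested alternate genes was given as an effective number, the count of equally used genes that would have the same diversity. This number is the inverse Simpson index of CPM per kb of own exon. It was 6.35 ± 0.358 in overexpression and 6.19 ± 0.279 in wild type for the alpha cluster. For the beta cluster it was 16.04 ± 0.445 and 16.2 ± 0.271, and for the gamma cluster 14.05 ± 0.334 and 14.1 ± 0.43 (SD, n = 4 each). In each cluster the groups differed by less than the SD of either group.

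Wild-type replicate 2 stood apart in the beta cluster. Its beta genes summed to 176 CPM, against 142 to 155 CPM in the other 7 libraries, and 16 of 21 beta genes were above their own 8-library mean. Over the 21 genes the mean deviation was 0.24 on the log2 scale. Its gamma genes summed to 475 CPM, where the other 7 libraries held 404 to 459 CPM, and 15 of 20 were above their own mean. Pcdhb2 was at 6.43 CPM there against 2.45, 2.52 and 4.06 CPM in the other wild-type libraries, and at 3.26 to 3.37 CPM in the overexpression libraries. Pcdhb13 was at 8.84 CPM there against 3.70 to 6.07 CPM in all other libraries. Pcdhb2 and Pcdhb13 were picked after their values were seen. The coefficient of variation over the wild-type libraries, replicate 2 among them, had a median of 19.3% for beta genes, against 11.4% for alpha and 10.1% for gamma genes. The biological coefficient of variation that edgeR fitted over both groups had a median of 15.1% for beta, 16.3% for alpha and 11.0% for gamma genes. By that measure the beta genes were not the most variable.

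Base composition of the transcripts moved with the libraries. Across 11310 genes of at least 5 CPM, the slope of a library's log2 deviation on GC content was -0.13 per 10 percentage points in wild-type replicate 2, the lowest, and 0.035 to 0.090 in the overexpression libraries. The other wild-type slopes ran from -0.069 to 0.021. Median GC content was 46.0% for beta, 47.3% for alpha and 53.1% for gamma members. After a correction for GC content, the mean shift of the beta genes in wild-type replicate 2 was 0.19, still the highest of the 8 libraries. The median log2 fold change of the beta cluster was then -0.016. The mean shift of the gamma genes in wild-type replicate 2 rose from 0.063 to 0.11 with the correction. It was then the highest of the 8 libraries, with 16 of 20 gamma genes above their own mean.

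**Figure D5:**
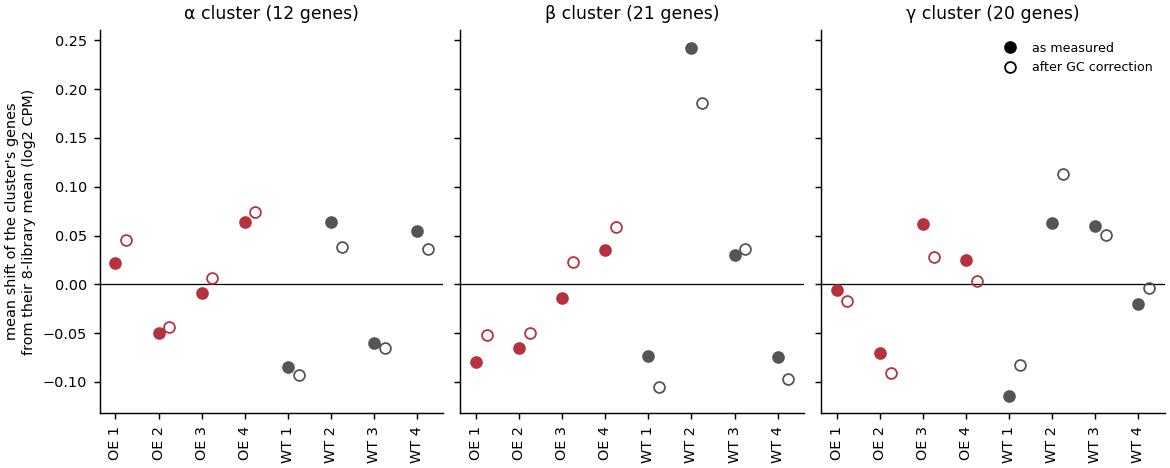
Mean deviation of each cluster's tested genes from their own 8-library mean (log2 CPM) for each library labelled overexpression (OE, red) and wild type (WT, grey), as measured (filled) and after the GC correction (open). In the beta panel wild-type replicate 2 lies at 0.24 and at 0.19 after correction, above the other 7 libraries, while in the alpha and gamma panels the groups intermingle.

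Genes that act on the clusters were taken from lists. CTCF and cohesin hold promoters and enhancers of the clusters in contact. Of 13 tested genes of this list, 0 passed the test, and at an unadjusted p under 0.05 0 were higher and 4 lower, with a median log2 fold change of -0.096. The 4 were the cohesin loader Nipbl (-0.16, SE 0.059), the cohesin regulator Pds5b (-0.14, SE 0.058), the cohesin release factor Wapl (-0.13, SE 0.056) and, outside the naming rule and chosen after its value was seen, the cohesin subunit Stag2 (-0.12, SE 0.054), with edgeR adjusted p from 0.36 to 0.44. Ctcf was at 0.0042 (SE 0.053) and the cohesin subunit Rad21 at -0.028 (SE 0.050). The median GC content of the 13 transcripts was 42.4%, and after the GC correction their median was -0.009, with 0 genes under 0.05 in either direction. The share of all genes at an unadjusted p under 0.05 was 5.11% after that correction, against 10.7% before it.

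Of 20 tested genes for silencing and DNA methylation at the clusters, 0 passed the test, and 1 was higher and 2 lower at an unadjusted p under 0.05 (median 0.024). By the same rule 5.24% of all genes tested were higher and 5.43% lower, and 5.11% were under 0.05 in either direction after the GC correction. The histone deacetylase Hdac2 had a log2 fold change of -0.20 (SE 0.060), the zinc finger gene Wiz 0.12 (SE 0.056) and the de novo methyltransferase Dnmt3a -0.11 (SE 0.053), with edgeR adjusted p of 0.31, 0.46 and 0.47. Smchd1, which silences clustered protocadherins among other genes, was at -0.078 (SE 0.065, edgeR adjusted p = 0.68). After the GC correction this list had 0 higher and 1 lower at an unadjusted p under 0.05. The binding and processing partners of the proteins had 1 higher and 3 lower of 27 tested, with a median of -0.039. These included the small GTPase Cdc42 (-0.19, SE 0.053) and 2 genes of the WAVE complex, Nckap1 (-0.14, SE 0.047) and Abi1 (-0.12, SE 0.052), with edgeR adjusted p of 0.31 to 0.40. The gene above 0, Wasf2 of the WAVE family (0.16, SE 0.069), was named after its value was seen. After the GC correction this list had 0 higher and 1 lower, and Abi1 was at -0.026.

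In the other lists 0 genes passed the test, though Flrt3, which encodes a repulsive and adhesive membrane protein, passed it with no low-count filter (edgeR adjusted p = 0.024). The 10 delta protocadherins had 1 higher and 1 lower at an unadjusted p under 0.05 (median -0.025), Pcdh1 at 0.10 (SE 0.048) and Pcdh20 at -0.29 (SE 0.090). Of 23 classical cadherins and catenins, 0 were higher and 2 lower (median -0.002), Cdh2 at -0.14 (SE 0.053) and Cdh10 at -0.13 (SE 0.056). Of 28 genes of other adhesion families, 2 were higher and 2 lower (median 0.019), Flrt3 at -0.31 (SE 0.081), Sdk2 at 0.22 (SE 0.065), Dchs1 at 0.22 (SE 0.096) and, named after its value was seen, Cntn4 at -0.12 (SE 0.055). Of 25 genes beside the clusters, 1 was higher and 0 lower (median 0.014), the growth factor gene Nrg2 at 0.43 (SE 0.17). Of 16 INO80 complex genes, 1 was higher and 1 lower (median 0.062), Mcrs1 (0.16, SE 0.060) and the deubiquitinase gene Uchl5 (-0.26, SE 0.069). The lowest edgeR adjusted p over these 5 lists was 0.26. At an unadjusted p under 0.05, 5.24% of all genes tested were higher and 5.43% lower, and 5.11% in either direction after the GC correction. After the GC correction, the counts higher and lower at an unadjusted p under 0.05 were 0 and 1 for the delta protocadherins, the cadherins and catenins, the other adhesion families and the INO80 complex. They were 2 and 0 for the genes beside the clusters. Cdh10 was at -0.016 after the correction.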

How the data were processed

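Counts per gene are as the authors deposited them, 1 column per library. Strand-specific poly(A) libraries were made per the labels' protocols, and the submitters' processing notes name Trimmomatic 0.39, STAR 2.7.10, featureCounts 2.0.3, mm10 and GRCm38. No source used here gives the annotation release or the counting options. Of counts between 10 and 49, 66.3% were even, and whether mates were counted singly was not tested. Gene symbols and exons came from GENCODE M21. The test was edgeR 4.0.16 (R 4.3.3): filterByExpr, trimmed mean of M-values (TMM), robust quasi-likelihood F test over 17636 genes, Benjamini-Hochberg threshold 0.05. It was run on 1 set of simulated counts with 50 genes changed at each size. It found 50% of 1.25-fold, 74% of 1.5-fold, 86% of 2-fold and 100% of 4-fold changes, with 11 false calls. The simulated libraries had no GC differences, so the simulation does not cover those seen here. edgeR gives no SE for this test. SE were derived as the absolute log2 fold change over the square root of F, and intervals from these SE and the t distribution. Alternatives were other scalings and filters, DESeq2 1.42.0, limma-voom 3.58.1, no robust estimation, a replicate block, a GC correction (spline, 5 degrees of freedom) and leaving out libraries. No libraries were copies (lowest chi-square per degree of freedom 9.53). Members named were the 5 lowest p per direction, the 3 highest and lowest levels per cluster and the C-types, and up to 3 list genes under 0.05. Members and lists were chosen with earlier results of these data known. No sequences of members are given here.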

Additional observations from a re-analysis of the deposited data

Results flagged for a closer look

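Of 64 groups of 4 libraries checked, for 28 named members, Ino80e and the 3 cluster sums in both groups, 2 held a library far from the other 3, and chance flags about 1 in 20 such groups. Pcdhb14 stood at 9.02 CPM in overexpression replicate 1, above 8.25 to 8.34 CPM in the other 3, with a gap of 0.877 of the group's range. Pcdhgc3 stood at 34.8 CPM in overexpression replicate 3, below 39.2 to 39.8 CPM in the other 3, with a gap of 0.884 of the group's range.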

How the results depend on the processing

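Under all 19 alternatives 0 members passed the test, and the lowest adjusted p of a member was 0.12, with DESeq2. The number of members lower at an unadjusted p under 0.05 was 1 to 3 when each library was left out in turn (3 without wild-type replicate 4, with Pcdhb4 and Pcdhb14), and 2 with no low-count filter and with the GC correction, where Pcdhga12 joined Pcdha5. The number higher was 1 to 3 when each library was left out (3 without overexpression replicate 2, with Pcdhga7 and Pcdhgb1), and 3 without overexpression replicates 1 and 2 together. Pcdha5 was under 0.05 in all 19 alternatives, at -0.44 to -0.32, and Pcdha3 in 18, the exception being the fit without overexpression replicates 2 and 3, the libraries with Ino80e in the wild-type range (0.40). The gamma median ran from -0.034 to 0.054 and the beta median from -0.13 to 0.00017. Fold changes near 0 changed sign: Pcdhgc3 ran from -0.046 to 0.029 over the fits without 1 library and was 0.032 without overexpression replicates 2 and 3, and Pcdhgc5 ran from -0.057 to 0.051 and was 0.040 without overexpression replicates 1 and 2. Ctcf ran from -0.021 to 0.030 and Rad21 from -0.044 to 0.00087 over the fits without 1 library. Of the listed genes named, Flrt3 passed with no filter. With the GC correction Rad21 was at 0.041, Smchd1 at 0.0088 and Pcdh1 at -0.011. The cause was not tested. The fit with the replicate block called 0 members and 1 gene of all, against 6. Same-numbered libraries did not deviate together (r from -0.051 to 0.027), and libraries of different number had r from -0.11 to 0.10. No pairing by number was seen, and 4 such pairs cannot exclude it. Over all genes, calls numbered 83 with no filter, 44 with DESeq2 and 2 with limma-voom. Pcdha8 and Pcdha1, with 343 and 711 counts over the 8 libraries, had the largest SE of the members, and depth as its cause was not tested.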
